A study of Mus musculus with 24 samples.

Results

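The nuclear factor I (NFI) family of transcription factors was followed in mouse primary cultures of brown and of white fat cells. The members Nfia, Nfib, Nfic and Nfix were represented by every probe set whose single annotated symbol was one of these 4 genes, which gave 8 of the 12488 probe sets on the Affymetrix Murine Genome U74Av2 array, 2 for each gene. The array held 8251 genes by such single symbols. The study set brown against white cells, before and after they had matured. Brown cells were measured on 5 arrays at day 7 and 5 arrays at day 4, and white cells on 6 arrays at day 7 and 8 arrays at day 4. The labels call day 7 cells differentiated and day 4 cells not differentiated, and they name no strain, age, drug or genotype for any group. All 24 samples shared the culture in vitro, the Trizol extraction and a single round of biotin labelling from 5 ug of RNA. No label says whether arrays came from separate animals or cultures, so a p-value here speaks only of the spread among arrays, part or all of which may be technical. Arrays are named by the number in their label. All brown arrays have lower numbers than all white arrays. What the numbers mean is not stated, so handling and cell type cannot be told apart.

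NFI proteins share a DNA-binding domain in their N-terminal part and bind DNA as homodimers or heterodimers at a palindrome, TTGGC followed by 5 bases and GCCAA, or more weakly at one of its arms. Their C-terminal parts differ and can activate or repress transcription. In mice the members are known above all for the developing brain (Nfia, Nfib and Nfix), the lung (Nfib), the tooth root (Nfic) and the switch from embryonic to fetal muscle (Nfix). In mouse fat cells, NFI proteins have been described at open chromatin near Pparg-dependent genes, and Nfia as an activator of thermogenic genes.

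The start-site windows of the members are shown so that the letters of the family's own site can be looked for in them. Whether the members act on each other's genes was not tested. The windows come from RefSeq (GRCm38.p6), run from 250 bases before a start to 50 bases after it, and were found for 3 of the 4 genes. Nfia and Nfic had 1 window each and Nfix had 4, of which the one with most matches is printed. The window of Col1a2, a collagen chain gene whose promoter has been described to hold NFI sites and whose signal is given further on, is set beside them. Capitals mark each TTGGC or its reverse complement GCCAA.
Nfix, chr8:84772826-84773125, minus strand: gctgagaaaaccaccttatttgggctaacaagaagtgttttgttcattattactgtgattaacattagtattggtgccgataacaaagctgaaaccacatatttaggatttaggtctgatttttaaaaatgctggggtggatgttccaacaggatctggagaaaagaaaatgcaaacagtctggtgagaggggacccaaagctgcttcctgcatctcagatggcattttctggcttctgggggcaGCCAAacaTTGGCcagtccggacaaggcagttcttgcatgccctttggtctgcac
Nfia, chr4:97581693-97581992, plus strand: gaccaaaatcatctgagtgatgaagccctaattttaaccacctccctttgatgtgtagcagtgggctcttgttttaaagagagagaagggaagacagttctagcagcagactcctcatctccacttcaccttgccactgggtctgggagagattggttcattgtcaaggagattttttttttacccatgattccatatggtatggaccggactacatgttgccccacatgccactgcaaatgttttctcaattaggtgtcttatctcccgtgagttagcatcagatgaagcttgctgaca
Nfic, chr10:81427124-81427423, minus strand: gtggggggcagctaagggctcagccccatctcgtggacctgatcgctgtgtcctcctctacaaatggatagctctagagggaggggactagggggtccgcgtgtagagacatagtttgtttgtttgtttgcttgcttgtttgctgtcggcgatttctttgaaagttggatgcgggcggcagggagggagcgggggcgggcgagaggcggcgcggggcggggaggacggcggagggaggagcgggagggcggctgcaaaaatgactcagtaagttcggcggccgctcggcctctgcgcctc
Col1a2, chr6:4505368-4505667, plus strand: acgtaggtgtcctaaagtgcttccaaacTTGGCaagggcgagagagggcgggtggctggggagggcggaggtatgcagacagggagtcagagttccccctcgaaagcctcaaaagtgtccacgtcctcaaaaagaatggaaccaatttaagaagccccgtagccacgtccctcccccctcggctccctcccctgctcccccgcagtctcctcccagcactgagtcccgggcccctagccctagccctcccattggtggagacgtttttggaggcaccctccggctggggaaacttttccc

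The full palindrome, TTGGC with 5 bases of any kind and then GCCAA, searched on both strands, stood in 0 of the 6 member windows and in 12 of all 32851 windows (0.0365%). The single arm, searched as TTGGC or GCCAA and so on both strands, stood in 3 of the 6 member windows, all of Nfix, against 46.7% of all windows. In the printed Nfix window, GCCAA began 5 bases before the start and TTGGC began 3 bases after it, so that the arms lay 3 bases apart in the order opposite to that of the palindrome. The Nfia and Nfic windows held neither. Each full palindrome also holds both arms. A match of letters is a description and not a binding site.

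Signals are the deposited MAS5 intensities, brought to a common 2% trimmed mean of 150 on each array. Values under a signal of 8.21, the 20th percentile of all values, were set to that floor before taking log2. Probe sets above the 40th percentile of their array on at least 5 arrays were tested, 8397 in all and 6 of the 8 of the family. Median signal per array ran from 41.9 to 59.0. In bulk samples like these, fewer cells of a type and less RNA per cell cannot be told apart. Levels of different probe sets cannot be set against each other, so each is compared only with itself across arrays.

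White day 4 arrays 45 and 51 stood apart from the other 6 of their group. Over the 2112 probe sets called between brown and white cells at day 7, each day 4 array was placed on a scale from 0 (the brown day 7 mean) to 1 (the white day 7 mean). Arrays 45 and 51 had median positions of 0.34 and 0.41, the other white day 4 arrays 0.64 to 0.92, and the brown day 4 arrays -0.14 to 0.01. On Zic1, a transcription factor gene that marks brown fat from the back, both arrays lay at the floor like all white arrays, against signals of 58.4 to 119 on brown arrays. On Tcf21, a transcription factor gene that marks white fat, they had 302 and 306, within the 250 to 443 of the other white day 4 arrays and above the 4.83 to 23.7 of brown arrays. Their adipocyte genes were low. Adiponectin (Adipoq) had 1180 and 732 on arrays 45 and 51, against 1530 to 3100 on the other white day 4 arrays, and the lipid carrier Fabp4 had 191 on both, against 303 to 451. These arrays kept their label, and results that rest on them are given with and without them. In a fit of group means alone, leaving them out keeps the day 7 differences between brown and white cells. Only the spread among arrays, which all groups share in the test, then changes.

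In brown cells, all 4 NFI genes had a lower signal than in white cells at both days, by their leading probe set (that with the highest mean signal of those tested). The folds at day 7 were 10.9 for Nfib, 5.57 for Nfix and 3.24 for Nfic. For Nfia, which lay under the floor on 4 of 5 brown day 7 arrays, the fold of 6.21 was set by the floor and is not ranked with the others. The second probe sets of Nfia, Nfic and Nfix did not pass the test at either day on all 24 arrays. With the Gapdh 3′ to 5′ signal ratio as a covariate, described below, no NFI probe set passed at day 7 on these arrays. From day 4 to day 7 no NFI probe set passed the test in either cell type. All 4 leading probe sets had the same order of mean log2 signal, with white day 7 highest, then white day 4, brown day 4 and brown day 7, though for Nfia the brown means rest on values mostly under the floor. In that order only the step between white day 4 and brown day 4 passed the test. Without arrays 45 and 51 the white day 4 mean was the higher of the white means for Nfix, at 9.20 on the log2 scale, against 8.76 at day 7, and for Nfic, at 8.75, against 8.70. The plot of members by array shows all 8 probe sets.

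**Figure D1:**
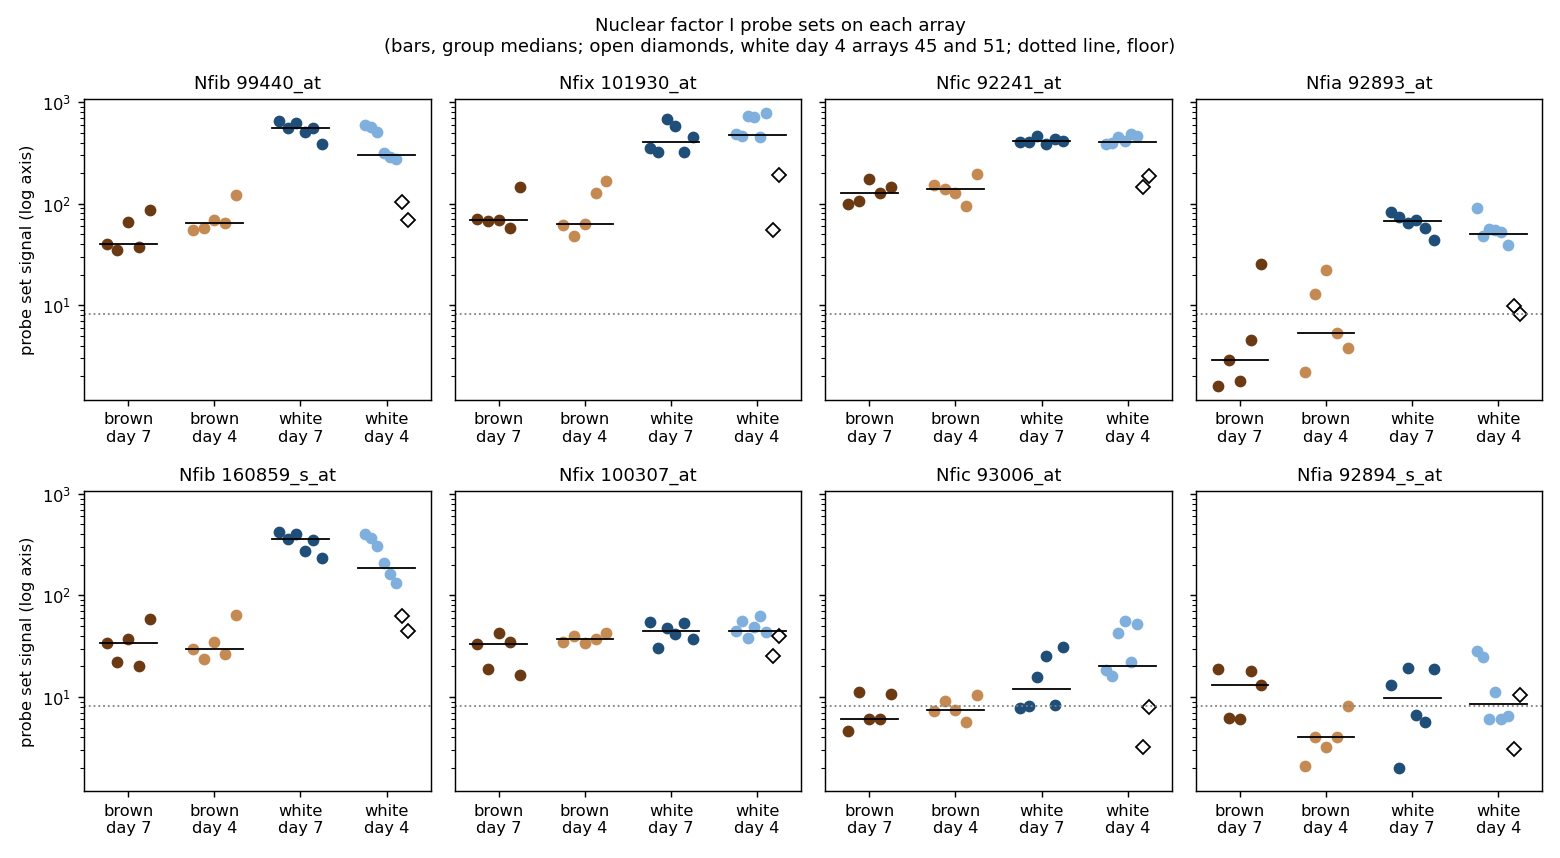
Signal of the 8 NFI probe sets on each array (log axis, MAS5 signal after scaling), by group, with the leading probe set of each gene in the upper row. Points are arrays, bars are group medians, open diamonds are white day 4 arrays 45 and 51, and the dotted line is the floor. In the upper row the white day 4 arrays 45 and 51 lie below the other 6 of their group, and the white day 7 arrays lie above all brown day 7 arrays for each gene.

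Nfib is needed in mice for lung maturation and takes part in stem cell control in the hair follicle. By leading probe sets, it differed more at day 7 than Nfix and Nfic did. That order was not tested, and at day 4 the Nfix difference was larger than that of Nfib. Nfia cannot be placed in that order, since its difference depends on the floor. Probe set 99440_at had signals of 40.2, 34.6, 66.1, 37.1 and 86.7 on the 5 brown day 7 arrays. White day 7 arrays had 386 at the lowest, 555 at the median and 656 at the highest. No brown day 7 array came near the lowest white one. At day 4 the brown arrays had 54.4, 57.2, 68.7, 64.4 and 120. White day 4 arrays ran from 68.3 over a median of 302 to 601. The groups overlapped at day 4 through array 45, with 103, and array 51, with 68.3, while the other 6 white arrays had at least 275.

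The log2 difference of 99440_at, brown minus white, was -3.44 ± 0.41 at day 7 (± SE here and below, limma, adjusted p = 7.86e-07). At day 4 it was -1.97 ± 0.39 (limma, adjusted p = 0.000582), and -2.53 without arrays 45 and 51 (limma, adjusted p = 7.25e-08). The second Nfib probe set, 160859_s_at, gave -3.39 ± 0.44 at day 7 (limma, adjusted p = 2.03e-06) and -2.31 ± 0.41 at day 4 (limma, adjusted p = 0.000177), or -2.87 without arrays 45 and 51 (limma, adjusted p = 1.39e-07). Its signals were 20.1 to 59.2 on brown day 7 arrays, against 233 to 426 on white day 7 arrays. Both Nfib probe sets thus differed in the same direction and by a similar size, although the suffix of the second marks probes that may also bind related transcripts.

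Nfix, known in mice for the fetal muscle programme and for brain development, was read by probe sets that did not give the same result. Probe set 101930_at had 71.2, 67.4, 69.1, 57.9 and 147 on brown day 7 arrays. White day 7 arrays had 320 at the lowest, 400 at the median and 677 at the highest. The groups did not overlap at day 7. Brown day 4 arrays had 61.8, 48.1, 63.4, 126 and 166, and white day 4 arrays ran from 55.0 over a median of 474 to 779. Array 45, with 55.0, lay among the brown arrays, and array 51, with 190, lay just above them.

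The log2 difference of 101930_at, brown minus white, was -2.48 ± 0.48 at day 7 (limma, adjusted p = 0.000424) and -2.20 ± 0.45 at day 4 (limma, adjusted p = 0.000883). Without arrays 45 and 51 it was -2.83 at day 4 (limma, adjusted p = 8.23e-08). The other Nfix probe set, 100307_at, had 16.3 to 42.9 on brown day 7 arrays and 30.2 to 54.3 on white day 7 arrays, which overlapped. Its difference at day 7 was -0.67 ± 0.25 and missed the threshold (limma, adjusted p = 0.0559, 95% interval -1.20 to -0.13). It passed without arrays 45 and 51 (limma, adjusted p = 0.0394), with the estimate unchanged, since these day 4 arrays enter only the shared spread. It also passed when brown day 7 array 11 or 12 or white day 7 array 36 was left out, at -0.83, -0.76 and -0.77. Without brown day 7 array 22 it moved the other way, to -0.48 (limma, adjusted p = 0.184). At day 4 it was -0.22 ± 0.24 (limma, adjusted p = 0.567). Why the probe sets of Nfix differed in size was not tested.

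Nfic, needed for tooth root formation in mice, had the smallest difference of the leading probe sets and, of these, the least spread among white day 7 arrays. Probe set 92241_at had 99.1, 107, 176, 128 and 147 on brown day 7 arrays. White day 7 arrays had 384 at the lowest, 410 at the median and 467 at the highest. The groups did not overlap. On brown day 4 arrays the signals were 154, 139, 129, 95.6 and 194, and white day 4 arrays ran from 145 over a median of 404 to 482. Arrays 45 and 51, with 145 and 186, were the ones that overlapped with brown arrays, since the other 6 white arrays had at least 382.

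The Nfic log2 difference, brown minus white, was -1.70 ± 0.25 at day 7 (limma, adjusted p = 1.66e-05). At day 4 it was -1.28 ± 0.24 (limma, adjusted p = 0.000283), and -1.63 without arrays 45 and 51 (limma, adjusted p = 2.22e-08). The other Nfic probe set, 93006_at, was too dim for the filter, with signals of 4.61 to 11.3 on brown day 7 arrays and 7.70 to 31.1 on white day 7 arrays. Fitted with no filter, its day 4 difference was -1.32 ± 0.44 and missed the threshold (limma, adjusted p = 0.0506). It passed without arrays 45 and 51, at -1.79 (limma, adjusted p = 0.00214). At day 7 it was -0.59 ± 0.47 (limma, adjusted p = 0.458).

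Nfia, the member described as an activator of thermogenic genes in mouse brown fat, was dim in brown cells. Probe set 92893_at had 1.56, 2.87, 1.80, 4.48 and 25.6 on brown day 7 arrays, of which 4 of 5 lay under the floor. White day 7 arrays had 43.8 at the lowest, 66.9 at the median and 82.8 at the highest, with no overlap. Brown day 4 arrays had 2.21, 13.0, 22, 5.34 and 3.80, of which 3 of 5 lay under the floor, and white day 4 arrays ran from 8.10 over a median of 50.4 to 91.5. Arrays 45 and 51, with 9.91 and 8.10, lay among the brown arrays, and the other 6 white day 4 arrays had at least 39.5. None of the 10 brown arrays had Nfia above the filter, so this probe set was tested only through white arrays and had to differ to be tested at all.

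The Nfia log2 difference, brown minus white, was -2.63 ± 0.49 at day 7 (limma, adjusted p = 0.000292). At day 4 it was -1.68 ± 0.47 (limma, adjusted p = 0.00998), and -2.33 without arrays 45 and 51 (limma, adjusted p = 8.42e-06). Its size depended on the floor. With the floor at the 40th percentile the differences were -1.14 at day 7 and -0.70 at day 4. With no floor they were -4.03 at day 7 and -2.40 at day 4. Each was past the threshold, but the filter, met only by white arrays, had partly set that outcome beforehand. The other Nfia probe set, 92894_s_at, had signals of at most 18.9 on brown day 7 arrays and 19.2 on white day 7 arrays and was too dim for the filter. Fitted with no filter, it differed by 0.09 ± 0.35 at day 7 (limma, adjusted p = 0.947) and by -0.52 ± 0.33 at day 4 (limma, adjusted p = 0.358).

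In all, 5 of the 6 tested NFI probe sets were lower in brown than in white cells at day 7, against 12.3% of all tested probe sets, and 5 of 6 at day 4, against 12.2%. None was higher. At day 7 the arrays of the groups did not overlap for the same 5 probe sets, against 9.44% of all tested probe sets with brown entirely lower. At day 4 that held for 0 of 6, against 3.97% of all. Without arrays 45 and 51, 5 of 6 were called lower at day 4, against 15.9% of all, and 5 did not overlap, against 8.12% of all. One of the 5, Nfia 92893_at, entered the test only through white arrays. The plot of brown minus white differences gives each probe set with both sets of arrays.

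**Figure D2:**
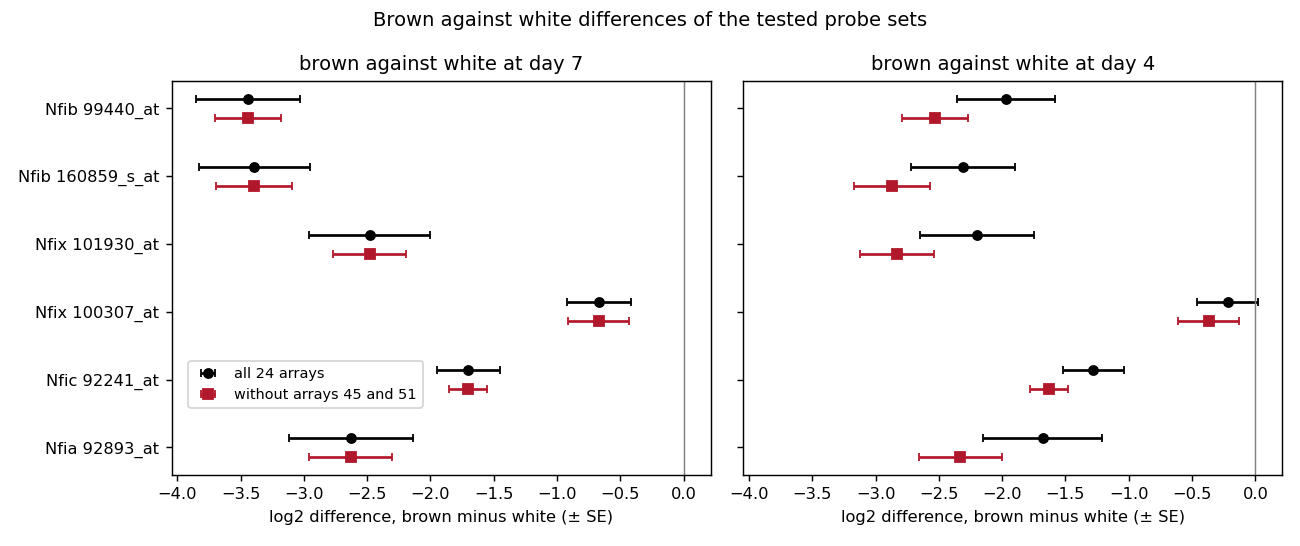
Log2 difference, brown minus white, of the 6 tested NFI probe sets at day 7 and at day 4. Points are limma estimates and bars are ± SE, for all 24 arrays and without arrays 45 and 51. All estimates lie below 0, and only Nfix 100307_at lies close to it.

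The Gapdh 3′ to 5′ signal ratio, a measure of RNA integrity and labelling, differed between the day 7 groups. It was 0.889 ± 0.0379 on brown day 7 arrays and 1.36 ± 0.204 on white day 7 arrays (SD, n = 5 and 6). It ran from 0.854 to 0.942 on brown and from 1.09 to 1.54 on white day 7 arrays, with no overlap. At day 7 it therefore cannot be well separated from cell type. On day 4 arrays it was 0.884 ± 0.0825 in brown and 0.943 ± 0.0955 in white cells (SD, n = 5 and 8). With its log2 as a covariate, the NFI differences at day 7 kept their direction but none passed the threshold. They were -2.11 for Nfib 99440_at (limma, adjusted p = 0.076), -1.76 for Nfib 160859_s_at (limma, adjusted p = 0.151), -0.94 for Nfic (limma, adjusted p = 0.228), -1.90 for Nfix 101930_at (limma, adjusted p = 0.24) and -1.40 for Nfia (limma, adjusted p = 0.423). In that fit 3.26% of all probe sets were called at day 7, against 25.2% without the covariate, and the median SE was 0.37, against 0.22. With the covariate and without arrays 45 and 51, an alternative chosen after seeing the data, all 5 passed, with Nfib 99440_at at -2.88 (limma, adjusted p = 0.000373) and Nfia at -2.33 (limma, adjusted p = 0.0223). At day 4, where the ratios of the groups were close, all 5 calls held with the covariate. The part of RNA integrity in the day 7 differences was not tested beyond these fits.

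Between day 7 and day 4 in brown cells, 0 of the 6 tested NFI probe sets passed limma's test. Since 12.1% of all tested probe sets were called in either direction, a count of 0 of 6 is near the background and says nothing particular of the family. The differences, day 7 minus day 4, were between -0.50 and -0.06, and their adjusted p-values by limma were 0.298 or more. For Nfib 99440_at the value was -0.50 ± 0.43 (95% interval -1.40 to 0.40), and for Nfic it was -0.11 ± 0.26 (95% interval -0.66 to 0.44). These intervals leave room for changes in either direction. Nfia was under the floor on 7 of the 10 brown arrays and above the filter on none, so its day 7 against day 4 difference in brown cells was not measured.

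In white cells 0 of the 6 passed either, also near the background of 19% of all tested probe sets. Nfib came closest, at 0.98 ± 0.37 for 99440_at (limma, adjusted p = 0.0618) and 1.01 ± 0.39 for 160859_s_at (limma, adjusted p = 0.0675). Both passed the threshold when any one of white day 4 arrays 33, 34 and 37 was left out, at 1.11 to 1.14 for 99440_at. They rested in part on arrays 45 and 51, without which they were 0.41 and 0.46. Nfia had 0.87 ± 0.44 (limma, adjusted p = 0.175), Nfic 0.30 ± 0.23 (limma, adjusted p = 0.378) and Nfix 101930_at 0.19 ± 0.43 (limma, adjusted p = 0.807). The values for Nfix and Nfic turned direction within runs of neighbouring array numbers, whose meaning is not stated. With the runs as a block, Nfix 101930_at was at -0.45 (limma, adjusted p = 0.224) and Nfic at -0.05 (limma, adjusted p = 0.795). These are also the values without arrays 45 and 51, whose run holds no day 7 array. Nfix 101930_at was lower at day 7 in each of the 3 white runs that hold both days, with differences of -0.50, -0.20 and -0.64 on the log2 scale, with 2 arrays of each day in a run. Within the other 6 white day 4 arrays, Nfib 99440_at had 601, 565 and 511 on arrays 33, 34 and 37, and 318, 286 and 275 on arrays 38, 41 and 42. The first of these sets lay inside the white day 7 range of 386 to 656 and the second below it. Nfic and Nfix did not share that order, as the plot in array order shows.

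**Figure D3:**
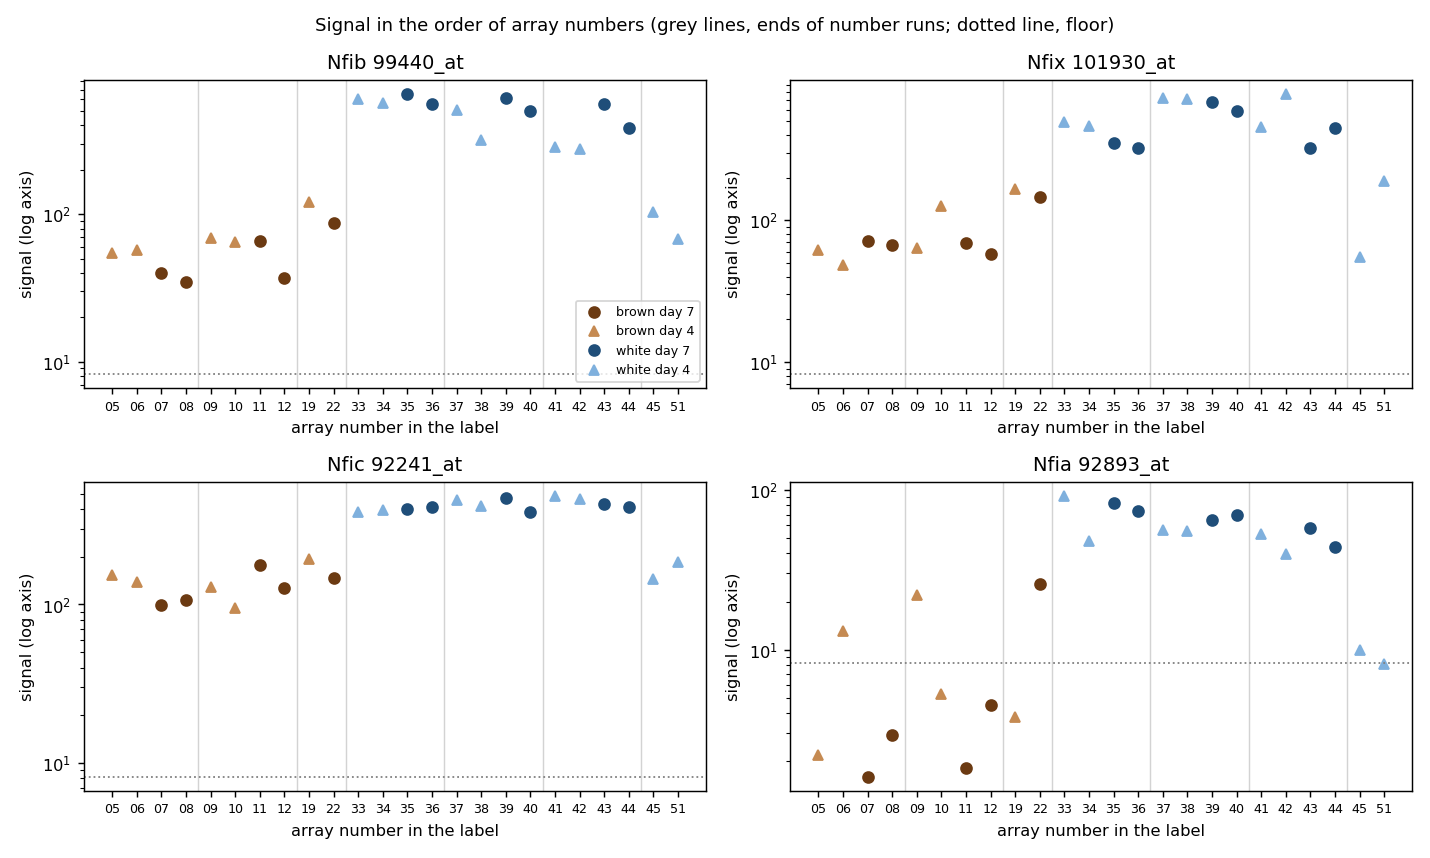
Signal of the leading NFI probe sets (log axis) against array, in the order of the array numbers in the labels, by group. The brown arrays come first and lie low, the white arrays are high, and arrays 45 and 51 at the end lie low again for each gene.

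The change from day 4 to day 7 did not pass a test for a difference between the cell types for any NFI probe set, where 0.214% of all tested probe sets did. The interaction, brown minus white, was -1.48 ± 0.57 for Nfib 99440_at (limma, adjusted p = 0.427, unadjusted p = 0.0149) and -0.28 ± 0.66 for Nfix 101930_at (limma, adjusted p = 0.962). The 2 day comparisons and this test share their arrays.

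On arrays 45 and 51 the leading probe sets lay below the median of the probe sets that separate brown from white cells, other than Nfix on array 51. On the scale above, those on array 45 stood at -0.20 for Nfix, -0.02 for Nfia, 0.10 for Nfic and 0.31 for Nfib, against a median of 0.34 over the 2112 probe sets with quartiles of -0.12 and 0.87. On array 51 they stood at -0.12 for Nfia, 0.14 for Nfib, 0.31 for Nfic and 0.52 for Nfix, against a median of 0.41 with quartiles of -0.13 and 0.93. On each array 3 of the 4 members lay between the lower quartile and the median. The values describe 2 arrays and do not set the family apart from other genes.

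Genes with a pattern most like each member's were those with the highest Pearson correlation of log2 signal with its leading probe set over the 24 arrays, among 6281 genes. Since the arrays fall into brown and white clusters, the values mainly measure that division, and they carry no test. Zbtb20, a zinc finger repressor, was among the 5 closest for Nfib (r = 0.962), Nfic (r = 0.939) and Nfia (r = 0.932). Nr2f2, a nuclear receptor also called COUP-TFII, was closest to Nfia (r = 0.935), and Sp1, a general activator at GC boxes, was closest to Nfic (r = 0.950). The kinase gene Mark2 was closest to Nfix (r = 0.951). The 99th percentile of r over all genes was between 0.826 and 0.866. By deviations from the group means over 22 arrays, without arrays 45 and 51, the closest were Cd47 for Nfib (r = 0.917), Wsb2 for Nfix (r = 0.828), Rdh13 for Nfic (r = 0.803) and Map2k1 for Nfia (r = 0.785). Zbtb20 was not among the 3 closest to any member over those 22 arrays. By the same deviations over all 24 arrays it was the closest to Nfia (r = 0.863) and the third for Nfib (r = 0.878).

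The genes set beside the family were those of the fat cell programmes it has been linked to, by 1 leading probe set per gene. Of all 6281 genes, 13.2% were higher and 12.3% lower in brown cells at day 7, and 11.7% higher and 12.8% lower at day 4, with medians of 0.00 and 0.01. The plot of gene lists shows the tested members of 9 lists. Calls are limma's adjusted p under 0.05 over all probe sets. Of the brown fat programme, 5 of the 9 genes on the array were tested. Of these 5, 4 were higher in brown cells at day 7 and 3 at day 4, and none was lower. Cidea, a lipid droplet protein of brown fat, differed by 5.60 ± 0.60 at day 7 and 3.09 ± 0.57 at day 4, and the mitochondrial subunit Cox7a1 by 3.89 ± 0.53 and 2.06 ± 0.49. Nfia, described as an activator of such genes, was lower in the same cells by probe set 92893_at, with the values above. That probe set lay under the floor on 4 of 5 brown day 7 and 3 of 5 brown day 4 arrays and was tested only through white arrays. The other Nfia probe set did not pass at either day. A link between Nfia and these genes was not tested.

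**Figure D4:**
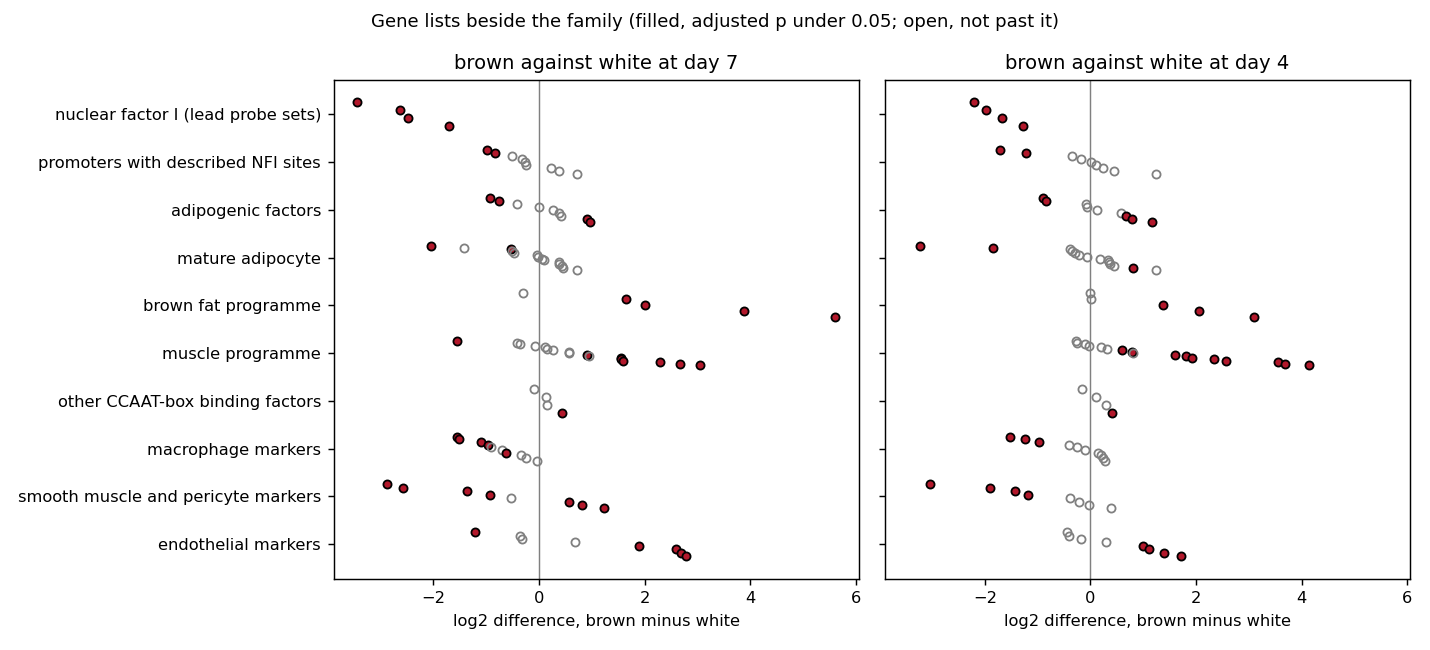
Log2 difference, brown minus white, at day 7 and at day 4 for the leading probe sets of the NFI genes and of genes on the lists. Points are genes, filled where limma's adjusted p is under 0.05. The NFI genes lie below 0, and the brown fat programme and muscle lists lie mostly above it.

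Of the adipogenic factors, 2 of 9 were higher and 2 lower in brown cells at day 7, and 3 were higher and 2 lower at day 4. The receptor Pparg, which drives fat cell differentiation, was higher, by 0.91 ± 0.22 at day 7 and 1.17 ± 0.20 at day 4. The early adipogenic factor Cebpb was lower, by -0.92 ± 0.14 at day 7 and -0.90 ± 0.13 at day 4, and so was Ebf1, at -0.76 ± 0.28 and -0.85 ± 0.26. Ebf3, of the same family as Ebf1, was higher, at 0.96 ± 0.20 and 0.79 ± 0.19. Of all genes, 13.2% were higher and 12.3% lower at day 7, and 11.7% and 12.8% at day 4. Beside these shares, such counts among 9 genes say little of the list as a whole. Of 14 mature adipocyte genes, 2 were lower and 0 higher at day 7 (Cidec at -2.05 ± 0.54 and Lpl at -0.53 ± 0.16), and 2 were lower and 1 higher at day 4. Without arrays 45 and 51 the mature adipocyte counts were 3 lower and 0 higher at each day, and those of the brown fat, adipogenic and muscle lists were as given.

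The striated muscle programme, set here because Nfix acts in muscle and brown fat shares its origin with muscle, had 7 of 17 genes higher and 1 lower in brown cells at day 7, with a median of 0.57. At day 4 it had 10 of 17 higher and 0 lower, with a median of 0.81. The shares of all genes were 13.2% higher and 12.3% lower at day 7, and 11.7% and 12.8% at day 4. The 17 were those tested of 27 listed genes on the array. On white day 4 arrays 1 of the 17 lay at the floor throughout. The troponin gene Tnnc1 differed by 3.04 ± 0.26 at day 7 and 4.15 ± 0.24 at day 4. The summed signal of the list was 2376 to 2750 on brown day 7 arrays and 1376 to 1990 on white day 7 arrays. It was 2862 to 4038 on brown day 4 arrays and 1258 to 1629 on white day 4 arrays, and arrays 45 and 51, with 1393 and 1382, lay within the white range.

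Of 9 tested genes whose promoters have been described to hold NFI sites, 2 were lower in brown cells at both days and 0 were higher. Of all genes, 12.3% were lower at day 7 and 12.8% at day 4, so this count says little of the list. The 2 were the collagen chains Col1a1, at -0.98 ± 0.23 at day 7 and -1.71 ± 0.22 at day 4, and Col1a2, at -0.84 ± 0.18 and -1.22 ± 0.17. Without arrays 45 and 51, Fabp4 joined them, at -0.51 ± 0.14 at day 7 and -0.59 ± 0.14 at day 4. The remaining 6 genes of the list, among them Alb, Gfap and Pck1, did not pass the test in either set of arrays, and the medians of the list were -0.27 at day 7 and 0.01 at day 4. In the printed Col1a2 window, TTGGC began 222 bases before the start. An arm of the palindrome stood in 6 of the 7 windows found for the 10 genes listed, against 46.7% of all windows. For the adipogenic factors it stood in 10 of 15 windows, and for the other CCAAT-box binding factors in 6 of 8. It stood in 4 of 7 windows of the brown fat programme, 7 of 14 of the mature adipocyte genes and 14 of 27 of the muscle programme. With so few windows, these counts say little of NFI sites in any list. No window was found for Col1a1 or Fabp4. Of 4 other CCAAT-box binding factors, Nfyc was higher in brown cells, by 0.43 ± 0.13 at day 7 and 0.40 ± 0.12 at day 4, and Nfya, Nfyb and Ybx1 did not pass.

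Markers of other cell types also differed between the groups. Of all genes, 13.2% were higher and 12.3% lower in brown cells at day 7, and 11.7% and 12.8% at day 4. Of 8 smooth muscle and pericyte markers, 4 were lower and 3 higher in brown cells at day 7. At day 4, 4 were lower and 0 higher. The contractile protein gene Cnn1 was lower, at -2.88 ± 0.39 at day 7 and -3.04 ± 0.37 at day 4. The 3 higher at day 7 were Abcc9, at 1.23 ± 0.26, Rgs5, at 0.81 ± 0.28, and Mcam, at 0.56 ± 0.18. Without arrays 45 and 51, 5 of the 8 were lower at day 7 and 4 at day 4. The summed signal of the 8 was 3841 to 5854 on brown day 7 arrays and 6326 to 9208 on white day 7 arrays. It was 2862 to 3770 on brown day 4 arrays and 4416 to 8231 on white day 4 arrays. Arrays 45 and 51 had sums of 7575 and 6230, within the white range. Of 10 macrophage markers, 5 were lower at day 7 and 3 at day 4, and none was higher. Their sums were 672 to 922 on brown and 938 to 1534 on white day 7 arrays, and 562 to 659 on brown and 650 to 1865 on white day 4 arrays, with 905 and 1865 on arrays 45 and 51. Of 8 endothelial markers, 4 were higher and 1 lower at day 7, and 4 were higher and 0 lower at day 4. The sums were 1651 to 2183 on brown and 1455 to 1912 on white day 7 arrays, and 1736 to 3023 on brown and 1390 to 2063 on white day 4 arrays. The mesothelial marker Wt1, also a gene of white fat precursors, was lower, at -2.28 ± 0.21 at day 7 and -2.83 ± 0.20 at day 4, 1 of 4 on its list at both days, while Krt19 was higher at day 4. Of 4 neural markers, Sox10 was higher at day 7 and none differed at day 4, and of 3 lymphocyte markers none passed at either day. On white day 7 arrays 1 mesothelial marker never left the floor, and no other marker of these lists lay there throughout a group. The part of such cells in the NFI differences was not tested beyond these values.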

How the data were processed

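The 24 arrays were compared as 4 groups taken from the array labels. The authors deposited probe set intensities on a linear scale. They come from MAS5, a step known per the submitters' processing notes, with no version in the sources used here. Each array was scaled to a 2% trimmed mean of 150, floored at the 20th percentile (8.21) and put on the log2 scale from these deposited intensities. Probe sets above the 40th percentile of their array on at least 5 arrays were kept, without the 66 control probe sets. Since MAS5 subtracts mismatch signal, dim values are noisy, and 1.56% of tested values lay at the floor. The number of arrays limits the precision.

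One limma 3.58.1 model in R 4.3.3 (lmFit, then eBayes with the trend option) held the 4 group means, with 20 residual degrees of freedom. Tests were two-sided, with Benjamini-Hochberg adjustment over all 8397 probe sets within a comparison and a threshold of 0.05. The script was tested on simulated data. Symbols are those of the platform's annotation, some possibly outdated, and 10855 probe sets have a single one. Each gene was led by the tested probe set of highest mean log2 signal. Named neighbours were the 5 genes with the highest correlation of signal and the 3 with the highest correlation of deviations from group means. The members and lists were chosen with earlier results of these data known, so the patterns are not independent evidence. The alternatives were other floors, filters and scalings, array weights, no intensity trend, only the groups compared, the Gapdh ratio as a covariate, a block of array numbers, and arrays left out. Promoter windows came from RefSeq, 300 bases each. No probe positions are given, since no genome build was named for the array.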

Additional observations from a re-analysis of the deposited data

Results flagged for a closer look

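Brown day 7 array 22 stood above the other 4 arrays of its group on 2 probe sets. Nfia 92893_at had a signal of 25.6 on it, against 4.48 or less on the others, which all lay under the floor. Nfix 101930_at had 147 on it, against 71.2 or less on the others. For Nfix the gap to the next array took up 0.777 of the group's range on the log2 scale, above Dixon's 95% limit for 5 arrays (0.71). For Nfia the floor made the other 4 arrays equal, so any array above it takes up the whole range, and with no floor the share was 0.623, under that limit. In all, 31 groups were examined in this way, and chance gives such a gap in about 1 of 20.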

How the results depend on the processing

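The count of NFI probe sets lower in brown cells at day 4 was 5 under the alternatives tried, other than 6 of 8 with no filter and without arrays 45 and 51, where Nfic 93006_at passed, and the counts for day 7 against day 4 in brown cells and for the interaction were 0. The count at day 7 was 5 or 6, other than 0 with the Gapdh ratio as a covariate, where Nfia was at -1.40, Nfib at -2.11 and -1.76, Nfic at -0.94 and Nfix 101930_at at -1.90, and all 5 missed the threshold. The cause was not tested.

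The day 7 against day 4 difference in white cells changed sign with the covariate (Nfia -0.20, Nfib 99440_at -0.18 and 160859_s_at -0.40, Nfic -0.36, Nfix 101930_at -0.31) and with it and without arrays 45 and 51 (-0.03, -0.03, -0.26, -0.27 and -0.14 in the same order). It also did so without arrays 45 and 51 and with array number runs as a block (Nfic -0.05 and Nfix 101930_at -0.45 in both), and with array weights (Nfix 101930_at -0.13). The interaction changed sign with the covariate (Nfia 0.09, Nfib 160859_s_at 0.31, Nfic 0.23, Nfix 101930_at 0.21), with it and without arrays 45 and 51 (0.18, 0.15 and 0.05 for the last 3), and for Nfix 101930_at at 0.35 without those arrays or with the block. The brown change of Nfib 160859_s_at was 0.03 with the higher floor. None of these values passed the threshold, and the cause was not tested.

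Leaving out single arrays gave 0 to 2 NFI calls for white day 7 against day 4, with Nfib 99440_at at 0.70 to 1.14, Nfib 160859_s_at at 0.74 to 1.19, Nfix 101930_at at -0.21 to 0.33 and Nfix 100307_at at -0.12 to 0.10. In brown cells the same comparison ran from -0.28 to 0.18 for Nfib 160859_s_at, -0.24 to 0.01 for Nfic and -0.33 to 0.15 for Nfix 101930_at. For Nfia it ran from -0.42 to 0.16, but most of its brown values lay under the floor, so that range measures no change. The interaction of Nfix 101930_at ran from -0.51 to 0.12. No paired analysis was possible because the groups share no array number, and only the runs of neighbouring numbers, given above, could serve as a block for the comparisons of days. The size of the Nfia difference is limited by the floor, since most brown arrays had it near or under background.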
